A study of Mus musculus with 2 samples.

Results

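The replication-dependent histone genes encode the bulk of the proteins that package new DNA. They were taken as the protein-coding genes whose mouse symbol begins with Hist1h, Hist2h, Hist3h or Hist4h, which gave 67 of 31053 genes in the count tables. The set holds 6 genes for the linker histone H1, 18 each for H2A and H2B, 12 for H3 and 13 for H4. RNA was measured by droplet 3′ sequencing in cells sorted as lineage-low or -negative, Sca1-positive and c-Kit-high, called LSK cells, the gate that holds blood stem cells and early progenitors. The cells came from bone marrow and from spleen of C57BL/6 mice with orthotopic liver tumours of Hepa1-6, a mouse hepatoma line; the mice were 6–8 weeks old at injection. Every cell of both groups thus comes from a tumour-bearing host, and tissue is the contrast. Before the sort, cells were enriched with beads that either removed lineage-marked cells or caught CD117, and which tissue went through which is not stated. Each tissue gave 1 library and the number of mice behind it is not stated, so no difference has a replicate check and no test was run.

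The core histones H2A, H2B, H3 and H4 form the spool around which DNA is wrapped, and H1 binds where DNA enters and leaves it. Genes of this class are transcribed mainly while DNA is copied, and their mRNAs end in a conserved stem-loop in place of a poly(A) tail; the stem-loop binding protein Slbp holds that end, and the mRNAs are destroyed when replication stops. Some members also give polyadenylated transcripts, for instance in cells that have stopped dividing. The assay captures RNA by poly(A), so the UMIs (unique molecular identifiers, one per captured molecule) count only histone RNA that was caught that way, and how much stem-loop RNA was missed was not tested.

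There were 73740963 UMIs in 10088 cells of the bone marrow (median depth 5991 per cell) and 85937174 in 6546 cells of the spleen (median depth 9978), and the libraries had 16 cell barcodes in common. Markers of other lineages differed between the tissues. Summed over all cells, 10 dendritic cell markers stood at 771 CPM (UMIs scaled to a common library total) in bone marrow and 17860 in spleen. A list of 7 stem and progenitor genes (Kit, Ly6a, Procr, Hlf, Mecom, Cd34 and Slamf1) stood at 1258 and 514 CPM. Of the genes of the gate itself, Kit stood at 273 and 225 CPM and Ly6a, which encodes Sca1, at 70.5 and 80.6 CPM. Hlf stood at 413 and 71.1 CPM and Cd34 at 359 and 102 CPM. By the authors' reference labels, 1.20% of bone marrow cells and 53.9% of spleen cells carried names of other lineages. The names searched were dendritic, mast, basophil, eosinophil, macrophage, NK, T and B cells and thymocytes. Erythroid labels were not among them, so 354 spleen cells labelled pro-erythroblast were not counted as other lineages. Tissue, sort and library preparation cannot be told apart with these libraries.

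The stem-loop was found in most members. In the GENCODE M21 annotation (mm10), 43 of the 67 members carried the letters GG, any 2 bases, CTTTT, any base, AG, any 2 bases and CC after the coding part of their longest protein-coding transcript, searched on the transcribed strand, and in all 43 the 6 bases on either side of the loop were complementary. Only the pairs of the any 2 bases could fail, because the letters searched set the other pairs. In a wider search, anywhere in any protein-coding transcript, 72 of 21901 protein-coding genes (0.329%) held these letters, 44 of them members and 28 not. The stem-loop began 21 to 58 bases after the coding part, with a median of 31. A match describes letters in the annotated transcript. The absence of one in the other 24 says only that the annotation holds no such letters there, and 13 members had no annotated base after the coding part. The 6 forms found are shown with 5 bases on either side, the stem-loop in capitals, each with a gene that has it and the mm10 position of the capitals:
Hist1h1e (H1, chr13:23621782-23621797, minus strand): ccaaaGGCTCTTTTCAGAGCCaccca
Hist1h3c (H3, chr13:23745047-23745062, minus strand): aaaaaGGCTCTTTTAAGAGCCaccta
Hist2h2ac (H2A, chr3:96220418-96220433, minus strand): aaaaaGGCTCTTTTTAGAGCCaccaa
Hist1h4d (H4, chr13:23581950-23581965, plus strand): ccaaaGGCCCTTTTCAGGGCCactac
Hist1h4i (H4, chr13:22040966-22040981, minus strand): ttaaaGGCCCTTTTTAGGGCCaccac
Hist1h4b (H4, chr13:23757366-23757381, plus strand): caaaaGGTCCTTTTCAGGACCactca
The first form was in 25 members of types H1, H2A, H2B and H3, and the second in 6 of types H1, H2B and H3. The third was in Hist2h2ac alone. The last 3 forms were found in H4 members, in 7, 2 and 2 of them, and in no member of another type.

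The genes sit in few places. Chromosome 13 held 54 members in 2 stretches, 23 between 21715763 and 22043676 and 31 between 23531050 and 23934851, and these gave 23.6% and 67.2% of the histone UMIs in bone marrow and 28.5% and 63.6% in spleen. Chromosome 3 held 10 members, chromosome 11 held 2 and chromosome 6 held 1. Promoters were read from RefSeq (GRCm38.p6), which matched 61 members and not Hist1h2ap, Hist1h2bc, Hist1h3a, Hist1h3f, Hist2h2be or Hist2h4. The CCAAT box (CCAAT, on either strand) was present from 250 bases before to 50 after the start in 49 of 49 promoters of H1, H2A, H2B and H3 genes, in 3 of 12 H4 promoters, and in 37.9% of all 27025 promoters in the table. The TATA box (TATAAA) was present in 35 of 61 members against 14.2% of all promoters. The octamer ATTTGCAT was found in 7 of 17 H2A and 6 of 16 H2B promoters and in none of H1, H3 or H4, against 1.75% of all. The box AAACACA was found in 5 of 6 H1 promoters, 2 of 17 for H2A, 2 of 16 for H2B and none for H3 or H4, against 7.14% of all. Some H2A and H2B neighbours have overlapping windows, so the same site can count for both genes. Hist1h2ae (chr13:23571171-23571470) and Hist1h2bg (chr13:23571150-23571449) share 1 octamer in this way. The counts are therefore not of separate sites. The 150 bases before the start are shown for a member of each of 4 types and for Hist1h1c, the linker gene with the smallest contrast between cells rich and poor in S phase RNA, with all 4 motifs on either strand in capitals:
Hist1h1b (H1, chr13:21780626-21780775, minus strand): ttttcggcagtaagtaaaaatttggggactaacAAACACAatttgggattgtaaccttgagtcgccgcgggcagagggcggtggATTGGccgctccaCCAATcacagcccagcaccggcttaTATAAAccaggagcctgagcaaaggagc
Hist1h1c (H1, chr13:23738657-23738806, plus strand): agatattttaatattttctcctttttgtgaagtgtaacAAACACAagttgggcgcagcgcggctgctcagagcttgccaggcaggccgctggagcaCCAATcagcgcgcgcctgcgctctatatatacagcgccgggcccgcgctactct
Hist1h2ab (H2A, chr13:23750938-23751087, plus strand): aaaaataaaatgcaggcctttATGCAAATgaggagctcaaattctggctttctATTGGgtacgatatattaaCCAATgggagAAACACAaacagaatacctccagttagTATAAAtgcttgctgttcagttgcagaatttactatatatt
Hist1h3c (H3, chr13:23745522-23745671, minus strand): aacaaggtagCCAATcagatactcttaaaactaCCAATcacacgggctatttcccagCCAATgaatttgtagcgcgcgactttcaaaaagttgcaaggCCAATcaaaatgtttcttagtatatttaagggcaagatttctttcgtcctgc
Hist1h4d (H4, chr13:23581418-23581567, plus strand): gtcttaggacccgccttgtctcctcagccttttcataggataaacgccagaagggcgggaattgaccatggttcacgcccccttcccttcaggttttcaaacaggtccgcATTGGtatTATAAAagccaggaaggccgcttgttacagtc
The H1 and H2A windows both hold AAACACA and a CCAAT box, and the H3 window holds the CCAAT box 4 times.

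Of all UMIs, 0.415% in bone marrow and 0.339% in spleen came from these genes: 305835 UMIs or 4147 CPM (95% exact Poisson interval 4133 to 4162) and 291454 UMIs or 3391 CPM (3379 to 3404). The ratio of spleen to bone marrow was 0.818 (0.814 to 0.822, counting error only, as for all intervals here). The order of the libraries depended on which cells were counted. Without the cells with other-lineage labels the ratio was 1.03, and without the cluster HSC-3 it was 1.21. The first of these sets kept the spleen cells labelled pro-erythroblast, which held 88333 histone UMIs at 5463 CPM. In these sums, fewer cells that make a histone RNA and less of it per cell cannot be told apart.

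By type, the H3 genes differed most between the libraries. H3 UMIs stood at 696 CPM in bone marrow and 444 CPM in spleen, a ratio of 0.638 (0.629 to 0.646). H2B followed with 424 and 291 CPM, a ratio of 0.686 (0.675 to 0.698), and H4 with 588 and 436 CPM, 0.741 (0.731 to 0.751). The H1 sum, 1472 and 1296 CPM, and the H2A sum, 968 and 925 CPM, lay closer together, with ratios of 0.880 and 0.956. Under TMM scaling, which raised the log2 ratio of the median gene by 0.21, the H1 and H2A ratios crossed to 1.02 and 1.11 and the other 3 stayed below 1, at 0.856 or less. Without the cells with other-lineage labels the H1 ratio was 1.08 and the H2A ratio 1.24, with the other 3 between 0.828 and 0.921. After thinning to equal depth all 5 were below 1, with H1 at 0.769 and H2A at 0.813. H1 gave the most histone UMIs of any type, 35.5% in bone marrow and 38.2% in spleen.

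A few genes carried most of the signal. Hist1h1b, Hist1h1e, Hist1h4d, Hist1h2ae and Hist1h3c were the 5 most abundant members and together held over 50% of the histone UMIs of the combined libraries. At the other end 32 members had a mean below 10 CPM, with 8336 UMIs in bone marrow and 7877 in spleen between them, and Hist1h2aa and Hist1h2bq had none in either library. Hist2h2be, an H2B gene with a long annotated 3′ end, was among the low ones at 6.28 and 4.19 CPM. Of the 67 members, 30 shared over 50% of their 50-base windows with another member, 11 of them among the 35 with at least 10 CPM. How reads that fit several genes were counted is not given in the sources used here, so the values of near-identical genes such as Hist1h2ap, with 93.1% of its windows shared, are uncertain.

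Among the 35 members with a mean of at least 10 CPM (the measured members), 1 was at least 1.5-fold higher in spleen on the log2(CPM + 1) scale, 10 were at least 1.5-fold lower and 24 lay between. Of all 8644 genes at that level, 10.8% were as much higher and 18.3% as much lower. The median log2 ratio was -0.50 over the measured members and -0.11 over all genes. With TMM scaling 1 member was higher and 3 were lower, against 18.7% and 10.7% of all genes. After thinning the cells to equal depth 15 of 34 were lower, against 12.5% of all genes. With TMM the median of the members was -0.29 and the median of all genes 0.10; of the genes past the limit, 37.3% were higher as deposited and 63.6% with TMM.

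**Figure D1:**
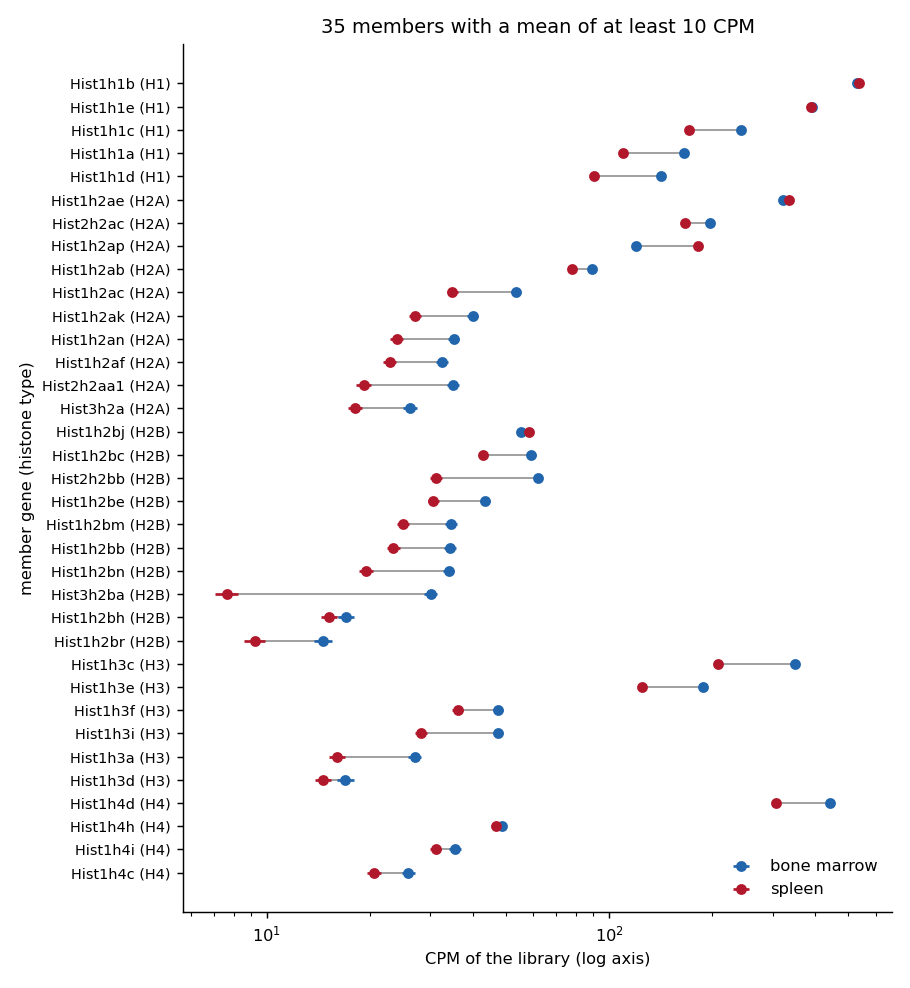
CPM of each of the 35 measured members in bone marrow (blue) and spleen (red), on a log axis, with 95% Poisson intervals; genes are grouped by histone type. Most pairs have the spleen point to the left; Hist1h2ap is the member with the spleen point farthest to the right of the bone marrow point, and Hist3h2ba has the widest gap.

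The linker genes split. Hist1h1b, the most abundant member, stood at 530 CPM in bone marrow and 536 CPM in spleen, and Hist1h1e at 393 and 388 CPM. For both, the interval of the ratio included 1. Hist1h1c, a linker gene also expressed outside S phase, stood at 242 and 171 CPM, Hist1h1a at 165 and 110 CPM, and Hist1h1d, the 1 linker gene past the limit, at 142 and 90.1 CPM.

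Of the H2A genes, Hist1h2ae was nearly level at 322 CPM in bone marrow and 335 CPM in spleen. Hist1h2ap was the member that passed the limit upward, with 120 and 182 CPM and a ratio of 1.52 (1.48 to 1.56). Weighting the clusters alike in both libraries, thinning the cells or a pseudocount of 5 CPM left no member past the limit in that direction. Hist2h2ac stood at 197 and 167 CPM, Hist1h2ab at 89.2 and 78.2 CPM, and Hist2h2aa1 at 35 and 19.2 CPM.

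Of the 10 measured H2B genes, 4 were past the limit, all downward, against 18.3% of all genes. They included the 2 lowest ratios of the 35 measured members. Hist3h2ba stood at 30.1 CPM in bone marrow and 7.65 CPM in spleen, a ratio of 0.254, and Hist2h2bb at 62.0 and 31.2 CPM, a ratio of 0.503; Hist2h2bb overlaps Gm42743 on the same strand, and what that adds to its counts was not tested. Hist1h2bn followed at 34.0 and 19.5 CPM. Hist1h2bj, at 55.4 and 58.2 CPM, did not differ by more than the limit, nor did Hist1h2bc at 59.2 and 42.9 CPM and Hist1h2be at 43.4 and 30.6 CPM; Hist1h2be overlaps Hist1h1e on the same strand, so its reads cannot be told from that gene's where they overlap.

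All 10 measured H3 and H4 genes had a ratio below 1, with an interval that included 1 for Hist1h4h. Hist1h3c, the main H3 gene, stood at 350 CPM in bone marrow and 208 CPM in spleen, a ratio of 0.594, Hist1h3i at 47.3 and 28.3 CPM, Hist1h3e at 188 and 125 CPM and Hist1h3f at 47.4 and 36.1 CPM. Of H4, Hist1h4d stood at 440 and 306 CPM, Hist1h4h at 48.5 and 46.7 CPM, Hist1h4i at 35.5 and 31.2 CPM and Hist1h4c at 25.9 and 20.6 CPM. None of the 4 measured H4 genes passed the limit and 3 of the 6 measured H3 genes did, all downward. Of all genes, 18.3% were as much lower and 10.8% as much higher.

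The authors' cell table assigns each cell to 1 of 8 clusters, named HSC-1, HSC-2, HSC-3, DCP, LP, MEP, MP and MCP; the names are kept as deposited. How the clusters were made is not given in the sources used here, and the histone genes may have taken part, so their differences are a description. The histone genes were concentrated in HSC-3, at 13634 CPM in bone marrow and 13681 CPM in spleen, where 12.2% and 6.39% of the cells held 58.9% and 32.0% of the histone UMIs. A list of 35 mitosis genes summed to 6751 and 7384 CPM in HSC-3 and to 12474 and 11123 CPM in DCP, where the histone sum was 2010 and 955 CPM. Of the 35 measured members, 34 were highest in HSC-3 in bone marrow, where MCP with its 36 cells was left out, and 32 in spleen, where MCP was kept. The exceptions were Hist1h2bc in both libraries and Hist1h2ac and Hist3h2a in spleen. In bone marrow MCP, Hist1h2ac and Hist1h2bc also stood above their HSC-3 levels, at 136 and 113 CPM. Hist1h1b stood at 104.1 CPM in HSC-1 and 1977 CPM in HSC-3 of bone marrow, and at 58.9 and 2395 CPM in spleen, which is 19.0 and 40.7 times as much. Hist1h1c stood at 198 and 562 CPM and at 161 and 554 CPM, 2.84 and 3.44 times as much. Hist1h2bc did not follow, at 70.3 and 68.9 CPM in bone marrow and 52.1 and 43.3 CPM in spleen. Spleen MEP, 13.6% of the spleen cells, held 51.6% of the spleen histone UMIs at a median of 36084 UMIs per cell.

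**Figure D2:**
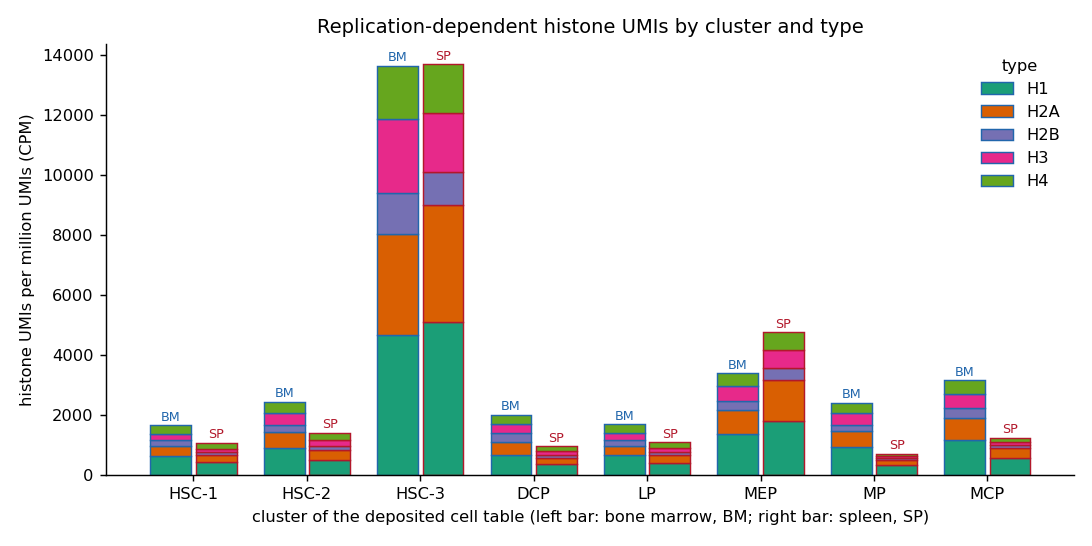
Histone CPM of each cluster in bone marrow (left bar) and spleen (right bar), stacked by histone type on an axis from 0. HSC-3 stands at 13634 and 13681 CPM and no other bar passes 4756 CPM; the spleen bar is higher in MEP, nearly level in HSC-3 and lower in the others. The MCP bars rest on 36 bone marrow cells.

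Between the tissues, HSC-3 was level and other clusters were not. The ratio of spleen to bone marrow in HSC-3 was 1.00 (0.995 to 1.01). It was 1.40 (1.38 to 1.43) in MEP, from 3391 to 4756 CPM. It was 0.647 in HSC-1 (1660 and 1074 CPM), 0.574 in HSC-2 (2441 and 1402 CPM), 0.647 in LP (1680 and 1086 CPM), 0.475 in DCP (2010 and 955 CPM) and 0.291 in MP (2403 and 700 CPM). The intervals of these 5 reached at most 0.668. MCP, with 36 bone marrow cells, was not compared; it stood at 3147 and 1238 CPM.

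Inside the level HSC-3 total the types were not level. H2A was higher in spleen, 3364 and 3907 CPM with a ratio of 1.16 (1.14 to 1.18), and H1 also, 4676 and 5101 CPM, 1.09 (1.08 to 1.11). Members of both types went either way. Of H2A, Hist1h2ap, whose value is uncertain, stood at 396 and 736 CPM, Hist1h2ae at 1180 and 1504 CPM and Hist2h2ac at 693 and 649 CPM. Of H1, Hist1h1b (1977 and 2395 CPM) and Hist1h1e (1023 and 1226 CPM) were higher in spleen. Hist1h1a (629 and 511 CPM), Hist1h1d (485 and 413 CPM) and Hist1h1c (562 and 554 CPM) were lower there. H3 was lower, 2450 and 1966 CPM, 0.802 (0.786 to 0.819), as was H2B, 1361 and 1086 CPM, 0.798 (0.776 to 0.820). H3 had the lowest ratio of the 5 types in 6 of the 7 clusters compared, down to 0.158 in MP, where it stood at 384 and 60.8 CPM; in HSC-3 the intervals of H3 and H2B overlapped. In MEP all 5 types were higher in spleen, from 1.26 for H3 to 1.67 for H2A.

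The member counts follow. In HSC-1, 13 of 21 measured members were at least 1.5-fold lower in spleen and none higher, against 5.48% and 4.96% of all genes. In HSC-2, 23 of 31 were lower and none higher, against 2.77% and 1.67%. In DCP, 28 of 28 were lower, against 32.5% of all genes (13.7% higher), and in LP 12 of 23, against 10.7% (8.9% higher). In MP, 25 of 27 were lower and none higher, against 29.7% and 8.03%.

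In HSC-3, 6 of 49 were lower and 1 higher, against 8.77% and 5.77% of all genes. In MEP, 7 of 34 were higher and 2 lower, against 7.46% and 13.5%. The members at either end recurred. Hist1h3c was the lowest in HSC-1 (68.6 and 22.4 CPM), LP (84.5 and 16.6 CPM) and MP (209 and 17.1 CPM). Hist1h2ap was the highest in HSC-3 (396 and 736 CPM), MEP (114 and 282 CPM) and LP (39.8 and 46.1 CPM).

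The remaining ends were other genes. The lowest were Hist1h2bn in HSC-2 (16.8 and 5.29 CPM), Hist3h2ba in HSC-3 (114 and 38.0 CPM), Hist1h1a in DCP (39.5 and 7.49 CPM) and Hist1h2ac in MEP (74.1 and 40.4 CPM). The highest ratios were those of Hist1h4i in HSC-1 (17.0 and 16.6 CPM), Hist1h2bc in HSC-2 (39.0 and 34.7 CPM), Hist1h4h in DCP (24.7 and 16 CPM) and Hist3h2a in MP (43.6 and 37.6 CPM), all below 1.

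Other-lineage content differed over the clusters and tissues, and its part in these ratios was not tested except by leaving out the labelled cells. The dendritic markers summed to 197 to 27865 CPM over the bone marrow clusters, with 4 to 9 of 10 detected, and to 832 to 64639 CPM over the spleen clusters, with 8 to 10 detected. In MP they stood at 27865 and 64639 CPM, in DCP at 404 and 46762 CPM in HSC-1 at 422 and 13524 CPM and in HSC-3 at 383 and 13746 CPM. In HSC-3, 0.244% of the bone marrow cells and 42.8% of the spleen cells carried other-lineage labels. The T or innate lymphoid markers summed to 45.6 to 268 CPM in bone marrow clusters (4 to 9 of 11 detected), with Cd3e and Gzma at 0 in all 8, and to 27.5 to 4295 CPM in spleen clusters (9 to 11 detected), the highest in LP. The mast cell or basophil markers ranged from 8.32 to 4514 CPM (3 to 10 of 10 detected) and from 50.2 to 31078 CPM (9 to 10), and the neutrophil markers from 143 to 5999.6 CPM (6 to 9 of 9) and from 8.08 to 1205 CPM (5 to 8), both highest in HSC-2. Without the cells with other-lineage labels, the ratio was 0.612 in HSC-1, 0.592 in HSC-2, 0.512 in DCP, 0.631 in LP and 1.40 in MEP. In MP 99.6% of the spleen cells had such labels, and no ratio was made without them.

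The reference labels gave a second division of the cells. Among cells labelled as multipotent progenitors (Ctla2a high) the histone sum was 3022 CPM in bone marrow and 1760 CPM in spleen, a ratio of 0.582. Cells labelled HSC-1 by the second label set stood at 2739 and 1308 CPM, a ratio of 0.478. Their S phase genes stood at 2385 and 2191 CPM and their mitosis genes at 1775 and 959 CPM. Those labelled HSC-2 and HSC-3 were near level, with ratios of 1.01 and 0.986. Within the erythroid labels the spleen was higher by less than in MEP as a whole: 1.255 in Ery-1, 1.07 in Ery-2 and 1.15 in Ery-3. The share of Ery-3 cells differed inside MEP, 69 of 357 cells in bone marrow and 616 of 891 in spleen. The highest label with at least 50 cells was the spleen's proliferating thymocyte label, at 13574 CPM over 52 cells, and the spleen's neonatal muscle mast cell label stood at 827 CPM over 550 cells.

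Cells were next compared at equal depth, each thinned at random to 3700 UMIs; 1007 bone marrow and 672 spleen cells were shallower and were left out. At least 5 histone UMIs were found in 52.4% of bone marrow cells (95% Clopper-Pearson interval 51.4 to 53.4) and 36.9% of spleen cells (35.6 to 38.1). At least 1 was found in 96.6% and 89.7%. Without thinning the shares were 70.9% and 65.9% for at least 5, and 98.5% and 94.9% for at least 1. No cell type here lacks histone genes, so free RNA has no empty reference; the lowest cluster, spleen MP, had 79.9% and 12.5% at the same depth, with a median of 10725 UMIs before thinning. Counts were unevenly spread over cells: the top 10% of cells held 47.7% of the histone UMIs in bone marrow and 54.8% in spleen.

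**Figure D3:**
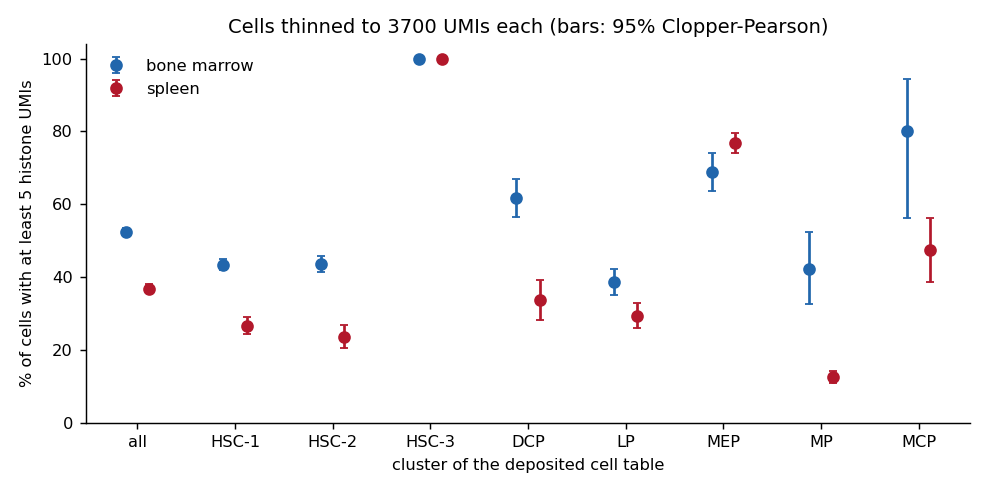
Share of cells with at least 5 histone UMIs after thinning to 3700 UMIs per cell, for all cells and by cluster, in bone marrow (blue) and spleen (red), with 95% Clopper-Pearson intervals. HSC-3 stands at 100% in both; the spleen point is lower in every other cluster but MEP, and the MCP intervals, from 20 and 133 cells, are wide.

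In HSC-3 every thinned cell had at least 5 histone UMIs, 1228 in bone marrow and 417 in spleen, and the median was 51 in both. The medians elsewhere were 4 and 3 in HSC-1, 4 and 3 in HSC-2, 6 and 3 in DCP, 4 and 3 in LP and 4 and 2 in MP. In MEP they were 7 and 13. The types moved together from cell to cell. Over 9081 bone marrow cells the correlation of H1 with H2A UMIs was r = 0.83 and of H3 with H4 r = 0.76. Over 5874 spleen cells these were 0.82 and 0.72. By ranks (Spearman's rho) the same pairs were lower, at 0.57 and 0.50 in bone marrow and 0.56 and 0.47 in spleen. These describe cells of 1 library each that share its depth.

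The histone sum was then set against 2 lists that share no gene with it, 48 genes of S phase (DNA replication) and 35 of mitosis, in the thinned cells. Binned by S phase UMIs per cell (0–2, 3–5, 6–13 and 14–46), the bone marrow cells held 1309, 1512, 4053 and 6451 histone CPM and the spleen cells 782, 1193, 3468 and 5846 CPM. In both libraries each further bin stood higher. The spleen was lower in each bin, with ratios of 0.597, 0.789, 0.856 and 0.906, so the gap was widest in the cells with the least S phase RNA. Those cells were 19.0% of the bone marrow cells and 36% of the spleen cells. Each bin pools cells of all clusters and lineages. Before thinning, MP was 1.17% of the bone marrow cells and 21.6% of the spleen cells. In spleen, MP stood at 439 S phase CPM and 700 histone CPM, and MEP at 4383 and 4756 CPM. The part of cell type in the bins was not tested. For H3 the ratio was 0.418 in the first bin and 0.702 in the last; for H2A it was 0.684 and 1.03.

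High S phase counts alone did not go with high histone levels. Cells with 14–46 S phase UMIs and at most 1 mitosis UMI held 930 CPM in bone marrow (192 cells) and 697 CPM in spleen (71 cells). Cells with 14–46 S phase and 11–110 mitosis UMIs held 11882 and 9508 CPM (1052 and 584 cells), and those with 0–2 S phase and 11–110 mitosis UMIs held 2874 and 1483 CPM (90 and 185 cells). Across cells the histone UMIs had r = 0.40 with the S phase list and 0.60 with the mitosis list in bone marrow, and 0.48 and 0.52 in spleen. Spearman's rho was 0.28 and 0.49 in bone marrow, and 0.43 and 0.50 in spleen.

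**Figure D4:**
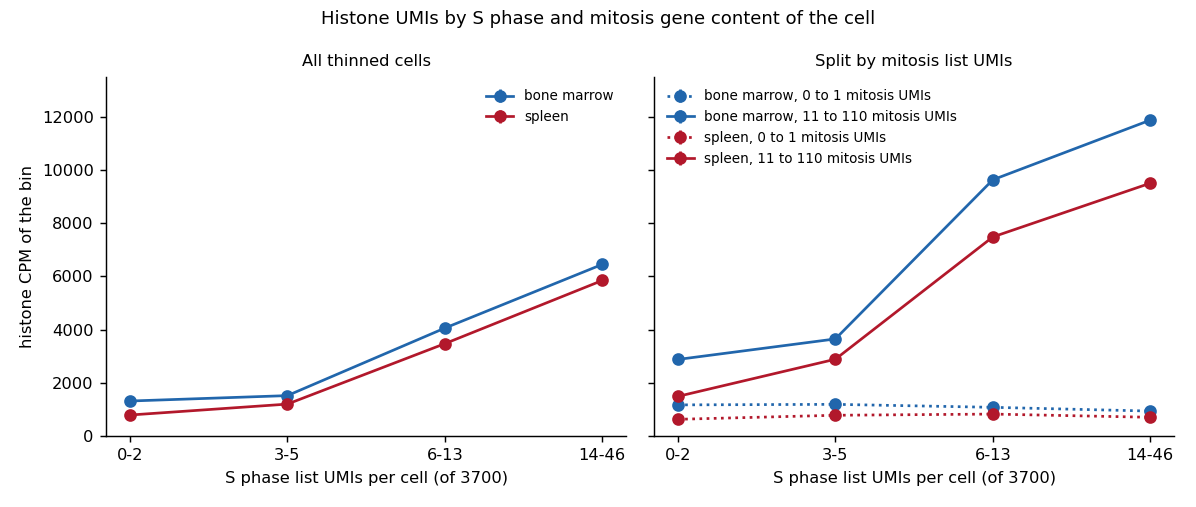
Histone CPM of thinned cells binned by their UMIs of the S phase list, for all cells (left) and for cells with 0 to 1 or 11 to 110 mitosis list UMIs (right), in bone marrow (blue) and spleen (red), with 95% Poisson intervals that are mostly smaller than the points. The solid lines climb to 11882 and 9508 CPM on the right, and the dotted lines stay at 1184 CPM or less.

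Members differed widely in the contrast between the outer S phase bins, which again pool all clusters. Hist1h1b stood at 49.5 CPM in the bone marrow cells with 0–2 S phase UMIs and 939 CPM in those with 14–46, a ratio of 19.0 (17.0 to 21.3), and at 33.5 and 1049 CPM in spleen, a ratio of 31.3. Hist1h3c went from 31.3 to 592 CPM and from 9.60 to 381 CPM, ratios of 18.9 and 39.7, and Hist1h1a had ratios of 12.6 and 30.5. The widest contrast of the measured members was that of Hist1h2af, named after its values were seen, at 26.8 and 45.1.

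Other members had little contrast or stood lower in the S phase rich cells. Hist1h1c stood at 189 and 262 CPM in the 2 bins of bone marrow and 164 and 200 CPM in spleen, ratios of 1.39 and 1.22. Hist1h2ac had ratios of 1.05 and 1.99. Hist1h2bc was lower in the S phase rich cells of bone marrow, at 70.6 and 28.7 CPM with a ratio of 0.407 (0.346 to 0.477), and near level in spleen, 35.3 and 40.9 CPM. Hist3h2a stood at 20.04 and 28.95 CPM in bone marrow and 33.0 and 9.75 CPM in spleen, ratios of 1.44 (1.16 to 1.80) and 0.295 (0.208 to 0.410). Hist2h2be, with few UMIs, had ratios of 1.34 and 0.651 whose intervals include 1. Hist1h1e, with ratios of 2.47 and 4.68, and Hist1h4d, with 3.63 and 6.48, lay between, as did Hist1h4h at 4.05 and 5.10 and Hist1h4i at 3.41 and 3.10.

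The shares of the linker genes in the H1 UMIs differed between the clusters. Hist1h1c made up 12% of the H1 UMIs in bone marrow HSC-3 and 31.4% in HSC-1, and 10.9% and 36.5% in spleen; in spleen MP it made up 52.1%. Hist1h1b ran the other way, 42.3% in HSC-3 and 16.5% in HSC-1 of bone marrow, and 47.0%, 13.3% and 11.8% in spleen HSC-3, HSC-1 and MP.

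The contrast was set against the annotated length of the 3′ end. Of the 35 measured members, 15 had over 250 annotated bases after the coding part and 20 had fewer, a limit set after the values were seen. The median ratio between the outer S phase bins was 2.56 in bone marrow and 4.89 in spleen for the long group (0.407 to 9.84 and 0.295 to 10.4) and 10.3 and 22.8 for the short one (4.02 to 26.8 and 1.27 to 45.1). The groups overlapped. Across these 35 genes Spearman's rho between the length and the ratio was -0.73 in bone marrow and -0.74 in spleen; the genes share libraries and cells, and 6 have no annotated base there, where the gene model may be incomplete. Hist1h1c has 880 annotated bases after the coding part, Hist1h2bc 742, Hist1h2ac 2058 and Hist3h2a 1700, while Hist1h3c has 114. Hist3h2ba, with 213, had the lowest ratio of the short group in both libraries, 4.02 and 1.27. Hist1h2bh and Hist1h1d, named after their values were seen, have long ends of 1258 and 4931 bases and ratios of 9.84 and 10.1 and of 5.81 and 8.46. Hist1h1c, Hist1h2ac and Hist3h2a carry the same stem-loop letters as Hist1h1e. Hist3h2a overlaps Trim17 on the same strand, and what that adds to its counts was not tested.

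**Figure D5:**
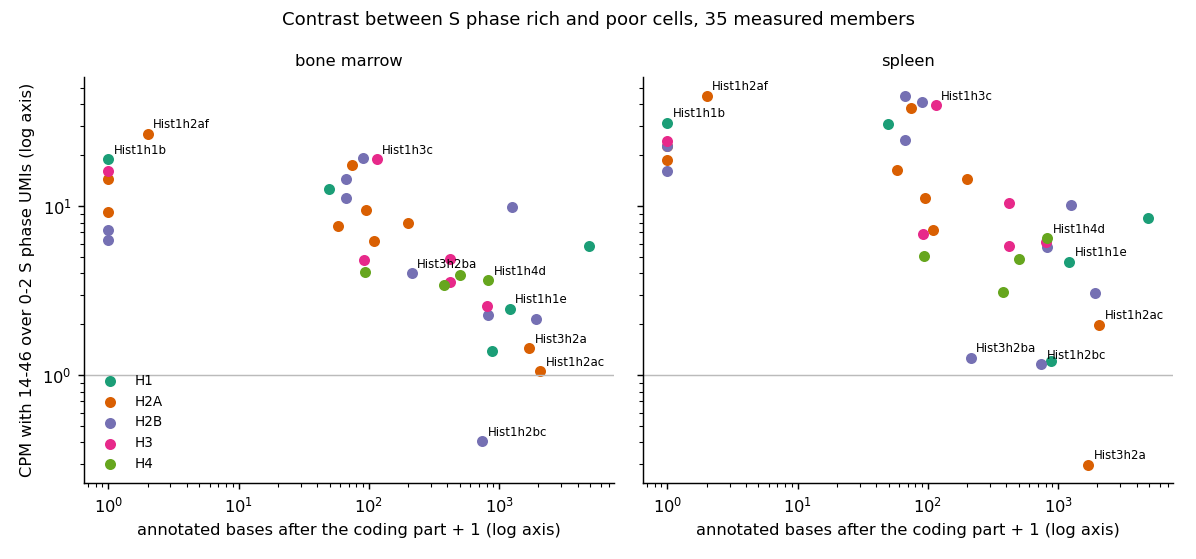
For each of the 35 measured members, the ratio of its CPM in cells with 14 to 46 over 0 to 2 S phase UMIs against the annotated bases after its coding part (plus 1), both on log axes, in bone marrow (left) and spleen (right), coloured by type; the grey line marks a ratio of 1. Points run from the upper left to the lower right, with Hist1h2bc (0.407 in bone marrow) and Hist3h2a (0.295 in spleen) at the bottom.

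Genes that act on histone mRNA were close to level between the tissues. Of 14 such genes 13 were measured. At least 1.5-fold higher in spleen was 1 and none was lower, against 10.8% and 18.3% of all genes. The summed ratio of the list was 0.974. Slbp stood at 96.6 CPM in bone marrow and 91.6 CPM in spleen. Npat, the activator of histone transcription, stood at 34.7 and 27.5 CPM, Casp8ap2, which is needed for histone mRNA 3′ processing, at 90.6 and 75.1 CPM and Sympk, a scaffold of the cleavage complex, at 43.4 and 36.7 CPM. The gene past the limit was Ncbp2, of the cap-binding complex, at 22.1 and 36.4 CPM, followed by its partner Ncbp1 at 30.2 and 41.2 CPM and Lsm11, of the U7 particle, at 16.3 and 20.7 CPM.

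Of the 18 measured of 19 histone chaperones and their partners, 2 were higher and 1 lower, against 10.8% and 18.3% of all genes. The summed ratio of the list was 0.997. Asf1b stood at 16.1 and 27.8 CPM and Nasp, which holds soluble H3 and H4, at 108 and 175 CPM. Ipo4, an importin for them, stood at 12.5 and 18.0 CPM. Atrx, which deposits H3.3 with Daxx, was the lower gene at 605 and 394 CPM; Ubn1 stood at 130 and 95.6 CPM and Chaf1b at 61.8 and 46.9 CPM.

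The list of replication-independent histones, most of which are made throughout the cycle from polyadenylated mRNA, had 10 of 11 genes measured. None was higher and 3 were lower, against 10.8% and 18.3% of all genes. The summed ratio of the list was 0.879. The lower genes were H1fx at 105 and 39.9 CPM, H2afy, which encodes macroH2A, at 1526 and 681 CPM and H1f0 at 76.5 and 46.9 CPM. H2afz stood at 983 CPM in bone marrow and 1425 CPM in spleen, H2afj at 268 and 358 CPM and H2afx at 153 and 181 CPM. H3f3b, which encodes H3.3, stood at 1864 and 1389 CPM.

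Of 46 measured S phase genes, 2 were higher and none lower, against 10.8% and 18.3% of all genes. The summed ratio of the list was 0.978. Ccne1 stood at 6.44 and 21 CPM, Rrm2 at 25.1 and 46.5 CPM and Dut at 180 and 261 CPM. Pcna stood at 92.6 and 81.2 CPM and Mcm5 at 68.8 and 75.8 CPM. Pole, Rfc3 and Rfc2 had the lowest ratios, 0.688, 0.699 and 0.715. Of 35 mitosis genes, 4 were higher and 1 lower, against the same shares of all genes, and the summed ratio was 1.09. Ube2c (95.9 and 217 CPM), Ccnb1 (35.7 and 63.6 CPM) and Plk1 (24.1 and 39.5 CPM) had the highest ratios and Pbk (45.2 and 26.8 CPM), Ttk (0.752) and Nusap1 (0.774) the lowest; Cks2, the other gene past the limit, stood at 149 and 235 CPM and Mki67 at 457 and 412 CPM. Under TMM scaling the summed ratios of all 5 lists were above 1, from 1.02 for the replication-independent histones to 1.26 for mitosis. After thinning all 5 were below 1, from 0.801 for S phase to 0.945 for mitosis, and with clusters weighted alike mitosis was 0.904.

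Over the 15 library and cluster sums with at least 100 cells, the genes whose log2(CPM + 1) ran most like the histone sum were, in order, Eri1 (r = 0.92), Atad2 (0.90), Esco2 (0.89), Pknox1, Ncapd3, Suz12, Brca1, Sart3, Bckdk and Gmnn (0.85), of 6421 genes ranked. The median r was 0.76 for the S phase list, 0.53 for the mitosis list and 0.06 for all genes. Eri1, an exonuclease that trims the histone stem-loop, ranged from 35.2 to 96.7 CPM over the sums. The sums share libraries, and the clusters may have been made from these genes.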

How the data were processed

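The deposited tables hold raw UMI counts for every gene and cell. Alignment to GRCm38 (mm10) and counting with Cell Ranger 3.1.0 are given by the design text; the submitters' processing notes list Seurat 3.1.5 and mm9, which conflicts, and the strand setting is not given in the sources used here. Clusters and reference labels came from the authors' cell table, and how they were made is not given in the sources used here. The authors' integrated matrix was not used. All deposited cells were kept, with no doublet step of this work. Symbols came from GENCODE M21; 31011 of 31053 identifiers matched.

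Counts were summed per library or cluster and scaled to CPM. Ratios carry exact intervals of 2 Poisson counts and shares exact Clopper-Pearson intervals, at 95%, for counting error only. No fold was made against 3 or fewer UMIs. A gene counted as higher or lower at 1.5-fold on log2(CPM + 1) with a mean of at least 10 CPM; clusters needed 100 cells per library. TMM factors came from edgeR 4.0.16 (R 4.3.3), all else from Python 3.11.15, scipy 1.17.1. Alternatives were other scalings, filters, pseudocounts, depths and cell sets. With clusters weighted alike, a cluster had the same weight in both libraries, namely its mean share of cells over them. The clusters did not have equal weights among themselves. Calculations were tested on simulated data.

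Named genes were the 4 most abundant members per type, the 4 highest and 4 lowest ratios, both ends in each cluster, a fixed set, and the 3 highest and 3 lowest of each list; Hist1h2af, Hist1h1d, Hist1h2bh and Cks2 were named after their values were seen. Members and lists were chosen with earlier results of these data known. Proteins were not used here.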

Additional observations from a re-analysis of the deposited data

Results flagged for a closer look

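The histone sum stood on opposite sides in different clusters. The ratio of spleen to bone marrow was 1.40 in MEP, with the whole interval above 1, and 0.647 in HSC-1, 0.574 in HSC-2, 0.475 in DCP, 0.647 in LP and 0.291 in MP, with the whole interval below 1. With 1 library per tissue the difference between clusters was not tested. In MEP the median depth was 11230 UMIs per cell in bone marrow and 36084 in spleen, and after thinning to equal depth the MEP ratio was 1.44.

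Hist3h2a differed in the same way between the libraries. Its CPM in S phase rich over S phase poor cells was 1.44 in bone marrow and 0.295 in spleen, and this difference was not tested either. In spleen it was highest in MP, at 37.6 CPM, where the dendritic markers stood at 64639 CPM; their part in the ratio was not tested.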

How the results depend on the processing

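The library ratio of 0.818 was 0.945 with TMM, 0.705 with cells weighted alike, 0.801 with clusters weighted alike, 0.713 after thinning, 0.789 without Hist1h1b and, chosen after seeing the data, 0.619 without MEP. It turned to 1.03 without cells labelled as other lineages and to 1.21 without HSC-3, also chosen after seeing the data. The cause of these shifts was not tested. Member counts follow, with the share of all genes as far past the limit in parentheses. The 10 lower of 35 (18.3%) became 3 with TMM (10.7%), 1 at 2-fold (6.55%) and 15 of 34 after thinning (12.5%). They were 12 of 35 with a pseudocount of 0.1 CPM (19.2%) and 8 of 35 with 5 CPM (14.8%). Without a filter on low values they were 12 of 65 (14.3%). The 1 higher member (10.8%) became 0 at 2-fold (4.15%) and with a pseudocount of 5 CPM (9.12%). It was also 0 with clusters weighted alike (4.72%) and after thinning (7.77%).

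The cluster ratios stayed below 1 in HSC-1, HSC-2, DCP, LP and MP and above 1 in MEP in every setting run, and HSC-3 stayed between 1.00 and 1.04. With TMM they were 1.04 in HSC-3, 0.576 in DCP, 1.82 in MEP and 0.426 in MP. With cells weighted alike they were 0.672 in HSC-1, 0.590 in HSC-2, 1.01 in HSC-3, 0.504 in DCP, 0.697 in LP, 1.49 in MEP and 0.328 in MP. After thinning they were 0.673, 0.589, 1.02, 0.517, 0.671, 1.44 and 0.314 in the same order. Without cells labelled as other lineages they were 0.612 in HSC-1, 0.592 in HSC-2, 1.02 in HSC-3 and 0.512 in DCP.

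Shares of cells with at least 1 histone UMI were 98.5% in bone marrow and 94.9% in spleen unthinned, 88.0% and 77.8% at 2000 UMIs, and 97.0% in bone marrow with another seed. For at least 5 they were 70.9% and 65.9% unthinned and 29.6% and 22.5% at 2000 UMIs. Listed genes past the limit with TMM were 2 higher mRNA factors, 3 higher and 0 lower chaperones, and 2 higher and 2 lower replication-independent histones. There were also 4 higher S phase genes, and 7 higher and 0 lower mitosis genes. Of all genes, 18.7% were higher and 10.7% lower with TMM, and 4.15% and 6.55% at 2-fold. At 2-fold the listed genes were 0 higher mRNA factors, 0 higher and 0 lower chaperones, and 0 higher and 2 lower replication-independent histones. There were 1 higher S phase gene, and 1 higher and 0 lower mitosis genes at that limit. No paired analysis was possible because each tissue has 1 library and no test was run. Depth limits the 32 members below 10 CPM.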
